A study of Mus musculus with 8 samples.

Results

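The respiratory chain and ATP synthase genes were compared between transplanted bone marrow (BM) cells, the hepatocytes derived from them and primary hepatocytes. Members were taken by gene symbol, as names on the arrays that begin with Nduf, Uqcr, Cox4 to Cox8, Atp5 or Sdha to Sdhd. They were 98 gene names in all, 91 of 50090 names on one array design and 95 of 34821 on the other, with 121 and 138 probes. By complex, 36 names belonged to complex I, 4 to complex II, 9 to complex III, 20 to complex IV and 15 to complex V, while 10 were assembly factors and 4 shared only the beginning of the name. All 98 names were found in RefSeq, where Uqcr on the first design is Uqcr11, so that they stand for 97 genes.

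The signals come from 1-colour Agilent arrays, 2 for each of 4 groups. The Lin- BM cells of arrays L3 and L4, which are marrow cells depleted of mature blood lineages, came from female C57Bl6/J-Tg(UBCGFP)30Scha/J mice, which carry eGFP. These cells were transplanted into male hemophilia A mice, which carry the F8tm1Kaz allele of the coagulation factor VIII gene, with an acute liver injury from acetaminophen. BM-derived hepatocytes were sorted from the recipients by eGFP after 1 month (B1 and B2) or 5 months (G1 and G3), and primary hepatocytes (H2 and H4) were the positive control. Donors and recipients were 6 to 8 weeks old at transplantation, and the strain and age behind the primary hepatocytes are not given in the labels. Cells of 3 mice were pooled for an experiment, and nothing in the labels says whether the 2 arrays of a group came from separate pools, so the errors given here measure only the spread between these arrays.

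Slide 1 held the Lin- BM cells with the 1-month hepatocytes and slide 2 the primary with the 5-month hepatocytes, and the slides differ in array design and scan day. Within a slide all probes were compared, and across slides only probes of identical sequence. In the 4 comparisons across slides, slide and group cannot be told apart. Levels are log2 signals relative to the 75th percentile of the array, so that a gene at 0 is as bright as that percentile, and differences are log2 changes ± SE from limma. A gene was called when its adjusted p was under 0.05 and its log2 change beyond 0.6 in size. With 2 arrays against 2, an exact two-sided permutation test of 1 gene cannot go below p = 0.33, so all calls rest on the spread that limma shares between genes.

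The respiratory chain passes electrons from NADH (complex I, NADH dehydrogenase) or succinate (complex II, succinate dehydrogenase) through ubiquinone to complex III, then through cytochrome c to complex IV, cytochrome c oxidase, which reduces oxygen. Complexes I, III and IV pump protons, and complex V, the ATP synthase, uses the proton gradient to make ATP. Hepatocytes are rich in mitochondria and cover the cost of urea, glucose and plasma protein synthesis largely by this route, whereas blood progenitors lean more on glycolysis. Nuclear genes encode all but a few subunits, and several subunits of complex IV have tissue-specific isoforms.

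Promoter sequence is a feature that the choice of members did not use. RefSeq gave 84 start sites for 78 of the 97 genes on GRCm38.p6, with windows of 300 bases, from 250 before to 50 after the start. Motif letters were searched on both strands for 4 factors known from this field. The core of NRF-1 (GCGCA, any base, GCGC), a nuclear activator of respiratory genes, was found in 20 of the 84 windows (23.8%), against 4.60% of all 32851 windows. The ETS core (CCGGAAG), which GABP binds, was found in 19 (22.6%) against 8.86%, the YY1 core (AAGATGGC) in 12 (14.3%) against 2.75%, and the core of the estrogen-related receptors (CAAGGTCA) in 4 (4.76%) against 1.56%. At least 1 of the 4 was in 45 windows (53.6%) and in 16.1% of all windows. The windows compared were not matched for their content of G and C, so these shares do not separate the motifs from base content.

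The 250 bases before the start are shown for a gene of complex II that rose and for 3 isoforms of complex IV that behaved differently in these data, with motif letters in capitals. Sdha (chr13:74350241-74350490, minus strand) holds the NRF-1 core at 3 places. Cox6a1 (chr5:115348959-115349208, minus strand) holds the NRF-1 core at 2 places and the ETS core at 1. Cox7a1 (chr7:30183921-30184170, plus strand) and Cox6b2 (chr7:4753095-4753344, minus strand) hold no match to the 4 motifs in this window. Having no match is not particular to these isoforms. The 300-base windows of the complex IV genes Cox5a, Cox5b, Cox7a2, Cox7b, Cox7c and Ndufa4 also held none, while those of Cox6b1 and Cox8a held the ETS core. Whether motifs go with the changes was not tested. None of the marked motifs overlap.
Sdha: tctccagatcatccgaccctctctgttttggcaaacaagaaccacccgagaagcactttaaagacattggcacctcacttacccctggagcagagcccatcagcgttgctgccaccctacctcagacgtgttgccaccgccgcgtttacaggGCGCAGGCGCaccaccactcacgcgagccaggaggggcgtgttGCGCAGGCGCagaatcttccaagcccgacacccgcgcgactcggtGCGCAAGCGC
Cox6a1: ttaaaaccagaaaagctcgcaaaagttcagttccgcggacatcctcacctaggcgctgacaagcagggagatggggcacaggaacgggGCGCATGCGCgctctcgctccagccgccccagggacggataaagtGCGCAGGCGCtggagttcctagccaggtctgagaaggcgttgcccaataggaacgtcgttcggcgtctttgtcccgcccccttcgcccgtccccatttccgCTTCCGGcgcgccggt
Cox7a1: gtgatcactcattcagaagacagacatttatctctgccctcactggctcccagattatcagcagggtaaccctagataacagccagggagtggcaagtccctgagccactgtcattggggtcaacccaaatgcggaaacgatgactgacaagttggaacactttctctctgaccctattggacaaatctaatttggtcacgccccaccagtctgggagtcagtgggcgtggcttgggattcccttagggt
Cox6b2: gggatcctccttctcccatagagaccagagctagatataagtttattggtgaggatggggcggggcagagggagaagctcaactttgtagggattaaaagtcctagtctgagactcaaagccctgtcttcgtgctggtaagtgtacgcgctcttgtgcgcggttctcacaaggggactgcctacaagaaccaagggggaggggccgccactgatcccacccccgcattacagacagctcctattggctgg

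The question within slide 1 was how these genes changed between the transplanted cell and the hepatocyte recovered 1 month later. Most of them were higher at 1 month, in all 5 complexes. Of the 91 names, 88 stood well above background in 1 or both groups, on both arrays of it, and were tested. In 1-month hepatocytes 56 of the 88 were called higher than in Lin- BM cells and 2 lower, at a median log2 change of 1.20, which is a 2.30-fold difference. Over all 28682 genes tested, 28.8% were called higher and 26.5% lower, and the median was 0.06. Both arrays at 1 month lay above both arrays of Lin- BM cells for 76 of the 88 genes, against 43% of all genes, and below them for 3, against 39%. Cox4i2, Cox7b2 and Cox8c were not well above background in either group.

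Scaling bears on the size of this rise. Before scaling, the median signal of the 88 genes was 7835 and 11004 in L3 and L4 and 8369 and 10882 in B1 and B2, so that the 2 groups overlapped. The 75th percentile of all probes, to which each array was scaled, was 193 and 177 in Lin- BM cells and 75.5 and 89.5 at 1 month. After scaling, the median level was 5.35 and 5.97 in Lin- BM cells and 6.80 and 6.94 at 1 month. The bright end of the arrays moved in the same direction, since the scaled 95th percentile was 4.78 and 5.04 against 5.33 and 5.24, and the 99th 7.58 and 7.68 against 8.17 and 8.15. Its part in the members' rise was not tested. With quantile normalization, which makes the distributions equal, 25 genes (28.4%) were called higher and 2 lower, at a median of 0.73, while 26.1% of all genes were called higher, so that under this scaling the members' share was near that of all genes. L3 and L4 differed from each other by more than B1 and B2, and with 1 array left out the median change of the members was 0.86 to 1.48. Called higher were 18 members (20.5%) without L3, against 21.1% of all genes, and 58 (65.9%) without L4, against 19.6%. Without B1 they were 12 (13.6%) against 20%, and without B2 8 (9.09%) against 17.1%. The share of members called above that of all genes thus rested on the scaling and on L3, B1 and B2.

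In complex I, the entry for NADH, 23 of 36 genes were called higher and none lower. All 36 had a positive change, and the median was 1.24 (0.24 to 2.07). Among the 7 core subunits, which hold the flavin and the iron-sulfur clusters, 4 were called, with changes of 0.62 to 1.36. Among the 29 accessory subunits 19 were called, with a median of 1.26. Ndufa6, an accessory subunit, had the largest change in the complex. Its level was 4.02 and 4.08 in Lin- BM cells and 6.03 and 6.20 at 1 month, a change of 2.07 ± 0.26 (adjusted p = 0.0033). The lowest change was that of Ndufc2, 0.24 (adjusted p = 0.61), which was not called.

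Complex II feeds electrons from succinate and has only 4 subunits, all encoded in the nucleus. All 4 were higher on both arrays at 1 month. Sdha, the flavoprotein, had a mean level (SD, n = 2) of 2.38 ± 0.54 in Lin- BM cells, against 4.36 ± 0.26 at 1 month, a change of 1.98 ± 0.37 (adjusted p = 0.010). Sdhb, the iron-sulfur subunit, went from 3.71 and 4.02 to 5.56 and 5.87, a change of 1.85 ± 0.29 (adjusted p = 0.0062). The 2 membrane anchors had smaller changes with larger errors and were not called. Sdhc changed by 1.26 ± 0.43 (adjusted p = 0.058) and Sdhd by 1.23 ± 0.42 (adjusted p = 0.057), and the levels of both differed between L3 and L4 (1.97 and 3.07 for Sdhc, 5.11 and 6.14 for Sdhd).

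Complex III, which passes electrons from ubiquinol to cytochrome c, had 6 of 7 genes called higher, at a median of 1.46. Uqcrq, a small subunit, went from levels of 6.48 and 7.16 to 9.15 and 9.06, a change of 2.29 ± 0.33 (adjusted p = 0.0052). Uqcr (Uqcr11) went from 6.02 and 6.95 to 8.35 and 8.51, a change of 1.95 ± 0.39 (adjusted p = 0.013). The Rieske protein gene Uqcrfs1 rose by 1.46 and the core protein gene Uqcrc2 by 1.22, whereas Uqcrc1 had a change of 0.98 and was not called (adjusted p = 0.051). The smallest change was that of another small subunit, Uqcrh, at 0.85 (adjusted p = 0.043).

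In complex V 11 of 15 genes were called higher and none lower. All 15 had a positive change, at a median of 1.14. The 5 genes of the catalytic head, Atp5a1, Atp5b, Atp5c1, Atp5d and Atp5e, were all called on their brightest probe and lay within 1.14 to 1.28. Of these 5 only Atp5a1 and Atp5b had further probes, which were not called, at 0.60 (adjusted p = 0.17) for Atp5a1 and 0.80 and 0.69 (adjusted p = 0.088 and 0.12) for Atp5b. Over all members, 29 further probes were tested on slide 1, of which 14 were called higher and 1 lower, at a median of 1.05. The 3 genes for the c subunit, which encode the same mature protein of the rotating ring, had unequal changes. Atp5g1 rose by 1.41 ± 0.41 (adjusted p = 0.038) and Atp5g3 by 0.98 ± 0.26 (adjusted p = 0.031). Atp5g2 had levels of 7.01 and 7.45 in Lin- BM cells and 7.61 and 7.45 at 1 month, a change of 0.30 ± 0.29 (adjusted p = 0.42). Its other probe had a change of -0.35, also not called, and the difference between the 3 genes was not tested. In the plot of log2 changes by complex, these genes form a narrow band above 0.

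**Figure D1:**
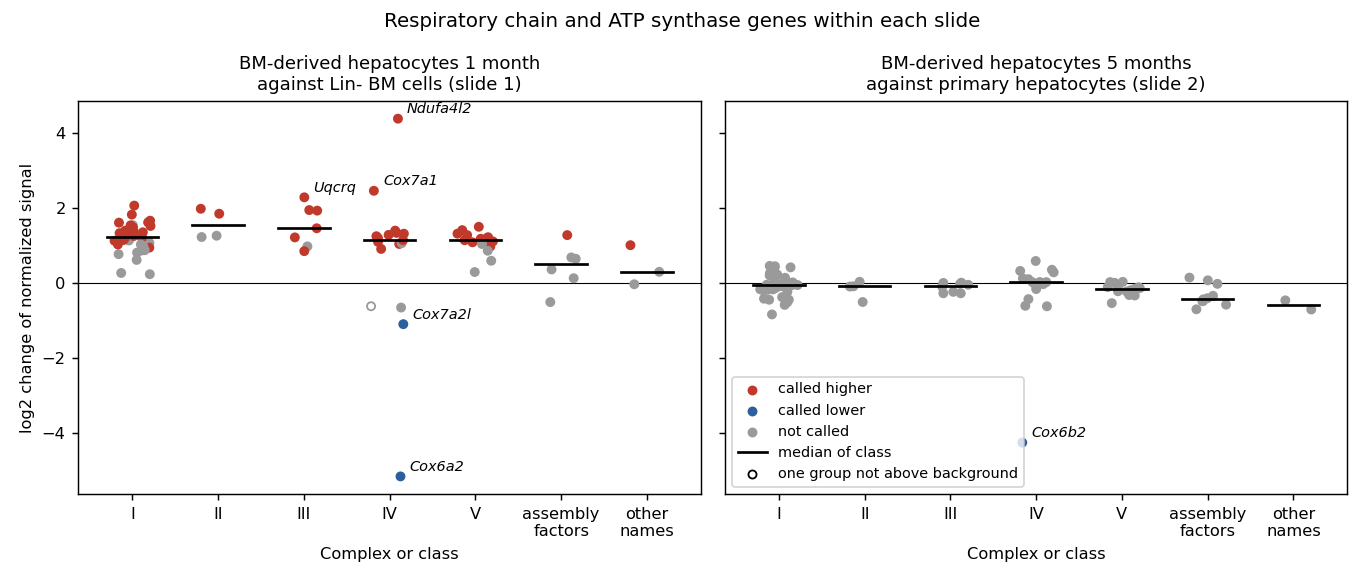
Log2 change of each tested gene (points) by complex or class, at 1 month against Lin- BM cells (left, 88 genes) and at 5 months against primary hepatocytes (right, 92 genes), 2 arrays per group, with the median of each class as a black line. Filled red and blue points are called higher and lower, grey points are not called, and for an open point 1 group has no value well above background. At 1 month the medians of complexes I to V lie between 1.14 and 1.56 and Cox6a2 and Cox7a2l lie below, and at 5 months the only called gene is Cox6b2.

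Complex IV was the one complex with calls in both directions. Of 17 genes tested, 12 were called higher and 2 lower, and the changes ran from -5.14 to 4.38. The subunits used in most tissues rose by like amounts: Cox4i1 by 1.04, Cox6a1 by 1.34, Cox6b1 by 1.10, Cox7a2 by 1.15, Cox8a by 0.91 and Ndufa4, now counted as a subunit of complex IV, by 1.40. Isoforms known from muscle did not move as a group, since Cox6a2 fell and Cox7a1 rose.

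Cox6a2, the isoform of heart and skeletal muscle, had the largest change of any of these genes. Its level was 2.88 and 3.68 in Lin- BM cells and -2.11 and -1.62 at 1 month, a change of -5.14 ± 0.39 (adjusted p = 8.6e-04). It remained well above background on all 4 arrays, and the groups lay far apart. Its ubiquitous partner Cox6a1 went the other way, from 8.47 and 8.97 to 10.07 and 10.05, a change of 1.34 ± 0.30 (adjusted p = 0.018). Of the 5 muscle markers Ckm, Acta1, Myh4, Actn3 and Tnnt3, 4 were called lower along with Cox6a2. Only bounds can be given for these 4, which were at least 1.49-fold (Actn3), 1.79-fold (Tnnt3), 1.98-fold (Acta1) and 2.26-fold (Myh4) lower. In Lin- BM cells all 5 were well above background, at 1 month none, at summed levels (on the linear scale, in units of the 75th percentile) of 0.60 and 1.34 against 0.16 and 0.26. Their part in the fall of Cox6a2 was not tested.

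Cox7a1, the muscle isoform of another subunit, rose by 2.46 ± 0.32 (adjusted p = 0.0036), from levels of -0.48 and 0.05 to 2.37 and 2.11. Its liver isoform Cox7a2 rose from 5.84 and 6.43 to 7.21 and 7.35 (adjusted p = 0.033). The related Cox7a2l, a protein of respiratory supercomplexes, was the second gene called lower. It went from 4.25 and 4.04 to 3.24 and 2.87, a change of -1.09 ± 0.29 (adjusted p = 0.028), on the only probe of the first design, and the call was lost when any 1 of the 4 arrays was left out.

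Of the remaining isoforms, Ndufa4l2, known as a hypoxia-induced relative of Ndufa4, had a change of 4.38 ± 0.84 (adjusted p = 0.011). It was not well above background on L3, had a level of -3.62 on L4, and differed between B1 and B2 (1.36 and -0.92). Cox6b2, known as the testis isoform, had levels of 2.60 and 3.76 in Lin- BM cells and 2.77 and 2.29 at 1 month, which overlap (change -0.65 ± 0.48, adjusted p = 0.29). Cox8b, a further muscle isoform, was in Lin- BM cells well above background and on neither array at 1 month, at levels too close to background for a fold (adjusted p = 0.50). Among the 6 tested assembly factors only Ndufaf1 was called, with a change of 1.28, and the median was 0.51. Ndufaf4, a factor of complex I, had the largest fall among them (-0.50, adjusted p = 0.24), and Cox4nb, which RefSeq names Emc8, was at -0.03. For the assembly factor Atp5sl, singled out after its values were seen, the probe used gave a change of 0.65 that was not called, while a dimmer probe was called lower, with levels of -1.89 and -1.74 in Lin- BM cells and neither array well above background at 1 month.

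The second question, within slide 2, was whether hepatocytes derived from marrow differ from primary hepatocytes in these genes after 5 months. Of 92 tested genes none was called higher and 1, Cox6b2, was called lower, and the median change was -0.09 (all 19943 genes: 0.366% called higher, 0.186% lower). By limma 4 of the other 91 genes had an unadjusted p under 0.05, against 2821 of all 19943 genes. The changes of the other 91 lay between -0.83 and 0.59, 86 of them within 0.6 in size, with a median SE of 0.20. The medians by complex were -0.05 for I, -0.09 for II, -0.07 for III, 0.03 for IV and -0.14 for V. Both arrays at 5 months lay below both arrays of primary hepatocytes for 44 of the 92 genes, against 22.7% of all genes, and above them for 14, against 25.2%. In complex V 11 of 15 genes lay below in this way, at sizes of at most 0.53.

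Cox6b2 had levels of 2.79 and 3.11 in primary hepatocytes and -1.41 and -1.18 at 5 months. The change was -4.24 ± 0.24 (adjusted p = 0.024), and all 4 arrays were well above background. The paired isoform Cox6b1, which most tissues use, had levels of 3.79 and 3.68 against 3.04 and 3.23 and was not called (-0.60 ± 0.21, adjusted p = 0.33). Cox6b2 lies on chromosome 7. Of its neighbours there, the 4 genes that were tested (Suv420h2, Tmem238, Rpl28 and Ube2s) had changes of 0.06 to 1.00 and were not called. The call was lost without G1 (-4.13, adjusted p = 0.40) or G3 (-4.36, adjusted p = 0.47), and in these limma fits 0 of all 20436 and 20807 genes were called (1384 and 1334 at an unadjusted p under 0.05).

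The next largest falls were those of Ndufa10, an accessory subunit of complex I (-0.83 ± 0.20, adjusted p = 0.22), the pseudogene Atp5c1-ps (-0.70), the assembly factor Atp5sl (-0.70) and Cox7a1 (-0.61). The largest positive changes were those of Cox6a2 (0.59 ± 0.24, adjusted p = 0.38), Ndufc2 (0.46), Ndufa13 (0.45), Ndufb3 (0.42) and Ndufa8 (0.41). None of these was called. Among the other isoforms, Cox4i2 had levels of -1.25 and -0.57 against -0.86 and -0.25, and Cox7a2l changed by 0.03. In complex II Sdha was at -0.50 ± 0.23 (adjusted p = 0.42), Sdhb at 0.04, Sdhc at -0.09 and Sdhd at -0.08. The second design also holds the 13 protein-coding genes of mitochondrial DNA, which encode the few subunits that nuclear genes do not. None was called, and their median change was 0.16 (-0.09 to 1.24). COX1 had the largest change with levels of 10.24 in H2, 8.58 in H4, 10.66 in G1 and 10.63 in G3, so that a single array of primary hepatocytes stood apart.

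On probes of identical sequence all 4 groups were set side by side. Of 61 such gene names 59 were tested, Cox7b2 and Cox8c being near background throughout. The 3 hepatocyte groups share the Lin- BM cells as reference, so their changes are not independent of each other. Called higher were 48 genes at 1 month, 45 at 5 months and 47 in primary hepatocytes, at median changes of 1.16, 1.24 and 1.29, against 30.8%, 29.3% and 29.3% of all 9218 genes tested. With quantile normalization they were 18, 17 and 20, which are 30.5%, 28.8% and 33.9% of the members against 28.4%, 28.4% and 28.7% of all genes. Called lower were 1 (Cox6a2), 4 (Cox6a2, Cox6b2, Cox8b and Atp5s) and 3 (Cox6a2, Cox8b and Atp5s), against 31.9%, 37.8% and 38.1%. Cox8b was at least 1.63-fold lower at 5 months and 1.97-fold lower in primary hepatocytes, being not well above background there. With normexp background correction its change was 0.10 at 5 months and 0.0659 in primary hepatocytes, with no call. In the plot of changes against Lin- BM cells, the 3 points of most genes lie close together.

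**Figure D2:**
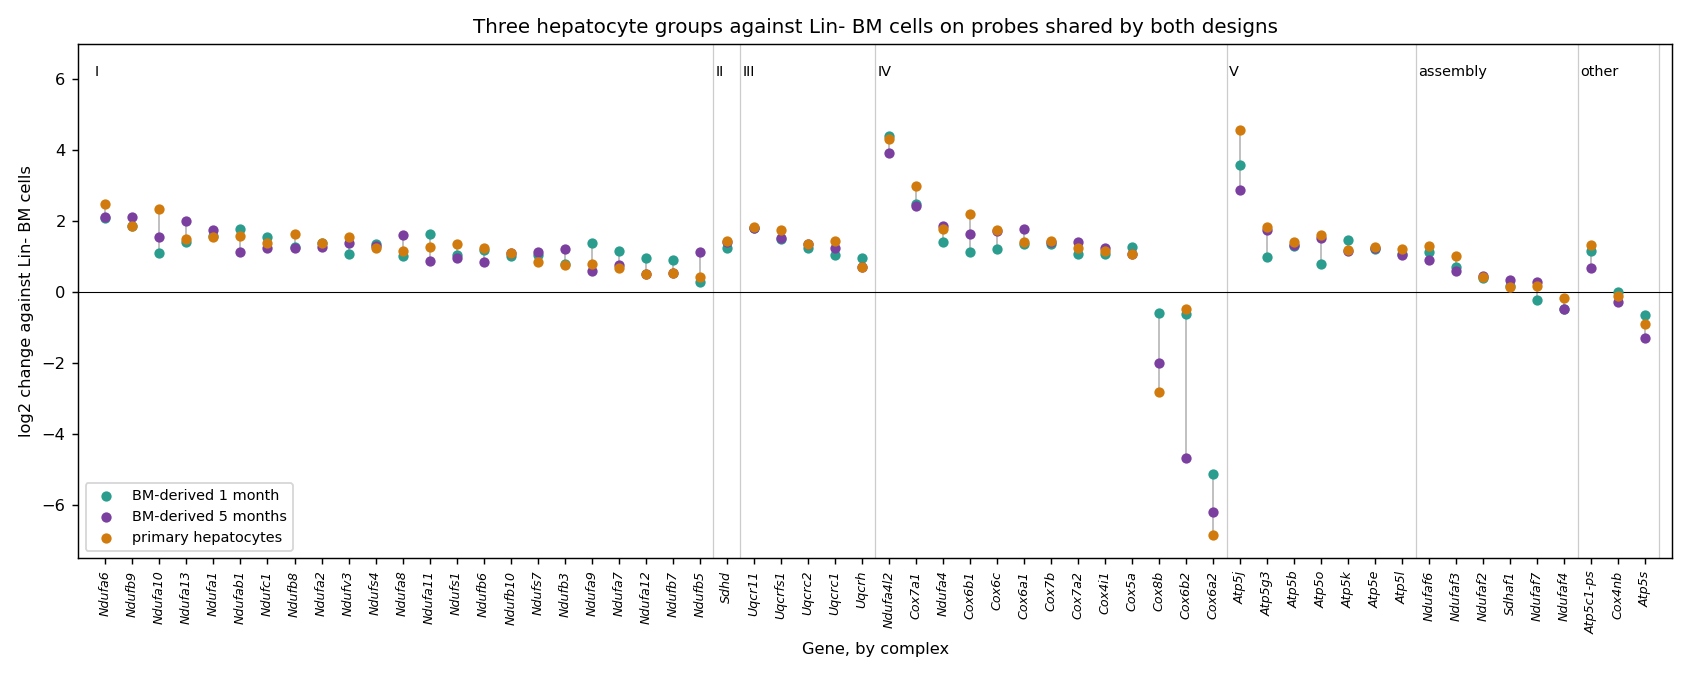
Log2 change against Lin- BM cells for the genes tested on probes of identical sequence (all but 1 of 59), grouped by complex, for BM-derived hepatocytes at 1 month and 5 months and for primary hepatocytes (means of 2 arrays each, joined by a grey line per gene). Medians over all 59 are 1.16, 1.24 and 1.29, Cox6a2 lies at -5.12, -6.21 and -6.84, and Cox6b2 is low at 5 months (-4.67). In Lin- BM cells the probe of Atp5j was not well above background.

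Between hepatocyte groups few genes were called. At 1 month against primary hepatocytes, 1 of 59 was called higher (Cox6a2, 1.72 ± 0.33, adjusted p = 0.018) and 5 lower, against 11.5% and 5.09% of all genes. Of the 5 called lower, 4 were Ndufa10 (-1.24), Cox6b1 (-1.07), Atp5j (-0.99) and Atp5g3 (-0.84), at adjusted p of 0.030 to 0.040, and no gene was called lower when any 1 of the 4 arrays was left out. Atp5j was at 0.15 with normexp. At 5 months against 1 month, Cox6b2 alone was called, with a change of -4.05 ± 0.38 (adjusted p = 0.0029), while 5.81% of all genes were called higher and 11.2% lower. The order of Cox6a2 levels was Lin- BM cells (1.51 and 2.15), 1 month (-3.56 and -3.01), 5 months (-4.38 and -4.37) and primary hepatocytes (-5.23 and -4.79). The neighbours 1 month and 5 months did not differ beyond the threshold (adjusted p = 0.065), nor did 5 months and primary hepatocytes (adjusted p = 0.49). The lowest signal well above background was -4.69 and -4.79 on B1 and B2, -5.73 and -5.42 on G1 and G3, and -6.04 and -5.65 on H2 and H4. On shared probes the 5 muscle markers were not well above background at 1 month or in primary hepatocytes. Their median change between these 2 groups was 1.12 (0.59 to 2.11), with no call. The part of such dim signal in the order of Cox6a2 was not tested.

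Cox6b2 was at 1.22 and 2.24 in Lin- BM cells, 1.08 and 1.44 in primary hepatocytes and 1.32 and 0.90 at 1 month, which overlap, and at -3.03 and -2.85 at 5 months. Cox7a1 was at -1.85 and -1.47 in Lin- BM cells and between 0.70 and 1.55 on the 6 arrays of hepatocytes. Ndufa4l2 was at -5.14 on L4, not well above background on L3, and between -2.31 and -0.09 on the hepatocyte arrays. The per-array plot of isoforms shows these beside the common isoforms, which were higher on all 6 hepatocyte arrays than on L3 and L4.

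**Figure D3:**
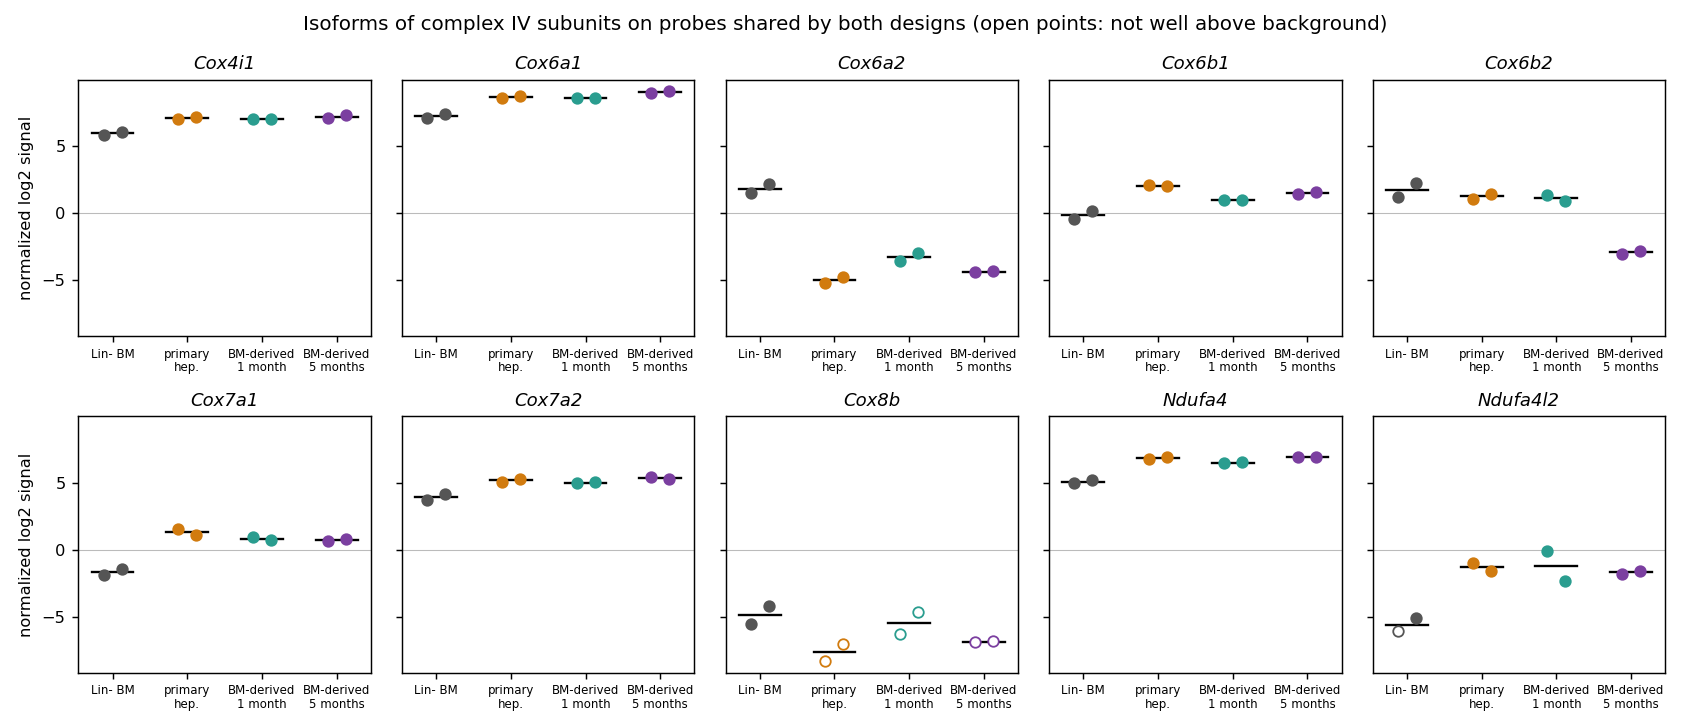
Normalized log2 signal on each of the 8 arrays (points, open where not well above background) for 10 complex IV genes on probes of identical sequence, with the mean of each group as a black line and 0 at the 75th percentile of the shared probes. Cox6a2 is high in Lin- BM cells alone, Cox6b2 is low at 5 months alone, and Cox4i1, Cox6a1, Cox7a2 and Ndufa4 lie between 3.73 and 9.12 throughout.

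Some shared probes carry different names on the 2 designs. Of 64 sequences of these genes, 13 were named as a member on 1 design only, and 10 of the 59 tested genes rest on such a sequence. For Atp5j, Atp5k, Atp5l, Atp5o, Uqcrh and Uqcr11 the first design gives a predicted gene, and near-identical copies cannot be separated by such a probe. In Lin- BM cells the shared probe of Atp5j was not well above background, and it stood at -4.60 and -4.57 at 1 month, and was called lower at 5 months than in primary hepatocytes (-1.68 ± 0.22, adjusted p = 0.029). The brighter probe of Atp5j on slide 2 gave levels of 7.58 and 7.60 against 7.34 and 7.22, a change of -0.32 that was not called (adjusted p = 0.55).

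Genes that work with the chain were taken from fixed lists, members left out, and compared on slide 1. Their counts stand beside 28.8% called higher and 26.5% called lower over all genes. Carriers of electrons to the chain and ubiquinone synthesis rose in 10 of 18 and fell in 2, at a median of 1.07. Sqrdl (3.47 ± 0.45), which passes electrons from sulfide, and Etfdh (3.18 ± 0.29) and Etfa (2.76 ± 0.32), which pass them from fatty acid oxidation, rose most, and Coq10a rose by 2.14. In the list for the tricarboxylic acid cycle 6 of 18 rose and none fell (median 0.62). The largest rise was that of Pcx, the pyruvate carboxylase (5.43 ± 0.30), which is not an enzyme of the cycle itself. Among enzymes of the cycle, the succinyl-CoA ligase subunits Suclg2 (2.31), Sucla2 (1.89) and Suclg1 (1.68) rose. Further assembly factors rose in 5 of 23 and fell in 2 (median 0.34), with Tmem126b at 2.52, Cox19 at 1.64, Tmem186 at -1.23 and Nubpl at 1.19. Mitochondrial ribosomal proteins, which make the subunits encoded in mitochondrial DNA, rose in 8 of 75 and fell in 3 (median 0.36), with Mrpl14 at 1.94, Mrps25 at -1.80, Mrpl19 at -1.51 and Mrpl38 at 1.47.

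The list of carriers of nucleotides, phosphate and protons also held the ATP synthase genes Atpif1 and Usmg5, which are not carriers. Of its 9 tested genes 1 rose and 3 fell (median 0.07). Ucp2, an uncoupling protein relative, fell by 3.11 on the log2 scale, the ADP/ATP carrier Slc25a4 by 2.80 and the ATP synthase inhibitor Atpif1 by 2.04, while Usmg5, a small ATP synthase subunit, rose by 1.24. Of 18 regulators of mitochondrial biogenesis 2 rose and 5 fell (median -0.15). Ppargc1a, the coactivator that is prominent in liver, rose by 3.08 ± 0.44 (adjusted p = 0.0049). Nrf1, which encodes the factor whose motif is marked above, fell from levels of -1.04 and -0.31 to -2.90 and -3.33 (-2.44 ± 0.37, adjusted p = 0.0057). Its 1-month levels lie close to the lowest signal well above background on these arrays (-3.25 on B1, -3.41 on B2). The shared probe of Nrf1 was not well above background at 1 month, so there it was at least 2.14-fold lower than in Lin- BM cells. Gabpb1, a subunit of GABP, fell by 1.98 on its brightest probe, while its shared probe was not called (adjusted p = 0.29). Pprc1 fell by 2.63 and Ppargc1b by 1.67. Ppara was at least 562-fold higher at 1 month, since in Lin- BM cells it was not well above background (adjusted p = 7.3e-05).

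Glycolysis was mixed, with 8 of 25 higher and 6 lower (median 0.11), near the 28.8% and 26.5% of all genes. The hexokinases Hk2 and Hk1 fell by 5.73 and 5.27, and Pkm2, the pyruvate kinase of proliferating cells, by 4.22, whereas Aldoc rose by 4.72. At 5 months against primary hepatocytes no gene of any of these lists was called within the slide, and the medians lay between -0.28 and 0.16.

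**Figure D4:**
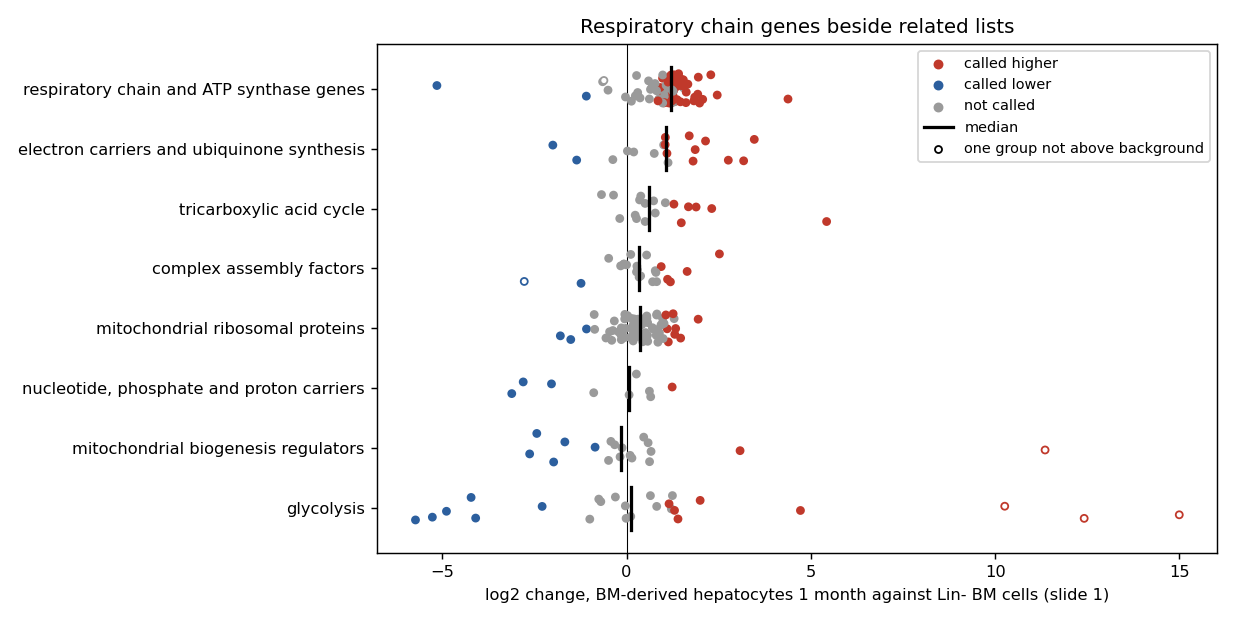
Log2 change at 1 month against Lin- BM cells on slide 1 for the 88 respiratory chain and ATP synthase genes and 7 related lists (points are genes, colours are calls, open points have a group not well above background, black lines are medians). The respiratory chain has the highest median (1.20), followed by electron carriers and ubiquinone synthesis (1.07), and glycolysis spreads widest.

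The arrays are of bulk cells, in which fewer cells of a type and less RNA per cell cannot be told apart. All 6 tested hepatocyte markers were called higher at 1 month, with Hnf4a up by 7.14. All 5 progenitor and 5 neutrophil markers were called lower. Other blood markers were less uniform, since of 5 erythroid markers 4 were called lower and 1 higher, and of 5 lymphocyte markers 3 were called lower. On probes of identical sequence, the Kupffer cell markers Cd5l, Clec4f, Marco and Timd4 were well above background for 2 of 4 genes on L3, 3 of 4 on L4 and 4 of 4 on every hepatocyte array. Their summed levels, in units of the 75th percentile of the shared probes, were 0.21 and 0.89 in Lin- BM cells, 3.07 and 13.4 at 1 month, 3.92 and 8.77 in primary hepatocytes and 23.4 and 20.4 at 5 months. Endothelial and stellate markers (Des, Lrat and Lyve1) stood at 0.0213 and 0.0387 in Lin- BM cells and between 0.29 and 0.66 on the 6 hepatocyte arrays. Of these 3 genes, 0 were well above background on L3 and 1 on L4, so the sums in Lin- BM cells lie near background. The full list had 5 markers tested on slide 1, of which 4 were called higher at 1 month and 1 lower (-2.52). The part of these cells in the changes above was not tested.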

How the data were processed

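Gene expression in 8 samples was measured on Agilent arrays of 2 designs (61307 and 55681 probes without controls, 13991 sequences shared). Per the file headers, the deposited intensity of each spot is the background-subtracted signal of Feature Extraction 11.5.1.1. The deposited log2 values were processed by the authors in GeneSpring GX with a 75th percentile shift and served as an alternative (array medians -4.11 to -3.17, scale, centring and direction matched to the scanner values).

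Spots marked as outliers (6 to 152 per array) were left out, and none was saturated. Signals were taken to log2 and the 75th percentile of each array was subtracted. A probe was tested where some group had both arrays well above background, and the brightest probe stood for its gene. Between 47.7% and 58.6% of spots per array were well above background, and the number of arrays limits the precision. Fits used limma (3.58.1, R 4.3.3) with Benjamini-Hochberg adjusted p-values across every tested gene. Values given singly followed a rule: isoform sets, complex II, the 5 largest rises and falls within each slide among genes above background on all 4 arrays, and calls at 5 months. The members and lists were chosen with earlier results of these data known. Gene names were matched to RefSeq (GRCm38.p6), and figures were made with matplotlib 3.10.9. The values of 1 gene are not reported here.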

Additional observations from a re-analysis of the deposited data

Results flagged for a closer look

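Cox6b2 was lower at 5 months than at 1 month in BM-derived hepatocytes, by -4.05 on the log2 scale on the probe of identical sequence (limma, adjusted p = 0.0029). It was singled out because the test of the difference between the 2 times passed the threshold. Both arrays at 5 months lay below both arrays at 1 month. The 2 times lay on different slides, so that slide and time cannot be told apart in this comparison.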

How the results depend on the processing

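At 1 month against Lin- BM cells the median change of the members was positive under all alternatives run. It was 0.81 with normexp and 0.73 with quantile normalization, which called 25 higher. The methods' t-test after Benjamini-Hochberg adjustment called 7 higher (7.95%, against 9.93% of all genes) and 1 lower (1.14% against 6.13%), and the shared probes 1 lower. Leaving out 1 array gave 8 to 58 higher, 1 lower and medians of 0.86 to 1.48. At 5 months against primary hepatocytes, 0 were called lower by that t-test, 4 of 92 by the unadjusted t-test and 2 on the shared probes. Of all 19943 genes, 0 were called lower by the adjusted and 616 by the unadjusted t-test, so these counts do not set the members apart. Leaving out 1 array gave medians of -0.11 to -0.08. On shared probes against Lin- BM cells, quantile normalization called 18 (1 month), 17 (5 months) and 20 (primary hepatocytes) higher. The adjusted t-test called 16, 19 and 17 higher, with 2 lower at 5 months and 1 in primary hepatocytes. The unadjusted t-test called 31 higher at 1 month, 2 lower at 5 months and 1 lower in primary hepatocytes. Counts on shared probes in this paragraph stand without the share of all genes under the same setting. They therefore do not show whether members were called more often than other genes. Normexp called 2 lower at 5 months and 1 in primary hepatocytes. Leaving out 1 array gave 35 to 47 higher and 1 to 3 lower at 1 month, 34 to 49 and 3 to 4 at 5 months, and 40 to 48 and 1 to 4 in primary hepatocytes. For 1 month against primary hepatocytes, the adjusted t-test called 0 higher and 0 lower, no filter 3 higher, normexp 2 higher, and leaving out 1 array 0 to 1 higher and 0 lower. For 5 months against 1 month, higher calls were 3 with the percentile over all probes, 3 with the values processed by the authors, 2 with the percentile over bright probes, 2 with bright probes only, 1 by the unadjusted t-test and 8 with normexp, and lower calls were 0 by the adjusted and 4 by the unadjusted t-test, 4 with normexp and 3 with bright probes only, while leaving out 1 array gave 0 higher and 1 lower. For 5 months against primary hepatocytes on shared probes, lower calls were 0 by the adjusted and 4 by the unadjusted t-test (which called 1 higher), 1 with normexp and 1 with bright probes only, and leaving out 1 array gave 0 higher and 0 to 1 lower. Of 1041 values for single genes, 872 kept direction and side of the threshold, 131 lost the call, 14 gained it and 24 changed sign. The sign changes at 1 month were Atp5g2 (-0.025 with the mean of probes, -0.10 with normexp, -0.16 with quantile) and Cox4nb (0.0043 with the percentile over bright probes, 0.02 without B2, and -0.42 to 0.37 over the arrays left out). At 5 months within the slide they were Sdhb (-0.38 with the mean of probes, -0.0087 with quantile, -0.02 without G3, and -0.10 to 0.17 over the arrays left out), Cox4i1 (-0.0005 with quantile, -0.03 without H2, and -0.10 to 0.16 over the arrays left out), and, over the arrays left out, Sdhd (-0.225 to 0.0585), Ndufa8 (-0.0824 to 0.898), Cox7a2 (-0.0017 to 0.22), Cox7a2l (-0.0337 to 0.0901) and Ndufa4 (-0.0072 to 0.0608). On shared probes with normexp they were Atp5j at 1 month against primary hepatocytes (0.15) and Cox8b against Lin- BM cells (0.10 at 5 months, 0.0659 in primary hepatocytes). Cox6b2 turned at 1 month against primary hepatocytes (0.03 without H4, and -0.364 to 0.0609 over the arrays left out) and in primary hepatocytes against Lin- BM cells (-0.978 to 0.0388). The cause was not tested. Testing each probe on its own was chosen after seeing the data. No paired analysis was possible because the groups compared share fewer than 2 replicate numbers. With 2 arrays a group, signal near background limits the dim isoforms.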
